A study of Bos taurus with 8 samples.

Results

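Fibro-adipogenic progenitors (FAPs) of bovine muscle were compared between freshly digested tissue and the adherent cells found after 72 h of culture (passage 0). The FAPs were the cells that carry this name in the deposited annotation, 1231 from muscle and 5756 from passage 0. They made up 6987 of the 13986 annotated cells of these 2 libraries, and the whole series holds 36129. UMI counts were summed over the FAPs of each donor animal, which gave 10 sums for muscle and 9 for passage 0, and the animal was the replicate in every test.

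FAPs are mesenchymal cells that lie between the muscle fibres. In resting tissue they carry the receptor PDGFRA, make much of the interstitial matrix, and supply growth factors, complement and Wnt modulators to their surroundings. After injury they enter the cell cycle and help satellite cells (SCs, the muscle stem cells) to regenerate fibres, and in other settings they give rise to fibroblasts or adipocytes.

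All donors were Belgian Blue cattle, and cells were isolated from the semitendinosus by collagenase digestion. The calves were donors 2, 4, 5, 7 and 10, the adults donors 1, 3, 6, 8 and 9, and donor 3 has muscle cells alone. The muscle group is unsorted cells taken directly after isolation. The passage 0 group is cells of the same isolation, kept as 1 culture per animal in serum-free growth medium on a fibronectin coat; its record lists SCs and FAPs beside unsorted cells, whereas by the methods all were unsorted. Cells of all donors were pooled into 1 Chromium 3′ library per group, so culture and library cannot be told apart. Culture also keeps only the cells that attach and grow, so a change within FAPs and the loss of some FAPs cannot be told apart either.

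Each muscle donor contributed 52 to 350 FAPs (median 105.5) and each passage 0 donor 452 to 946 (median 649). The summed UMIs ranged from 270458 to 2268755 per donor in muscle and from 10321593 to 23061306 at passage 0. The median FAP carried 4945.5 to 7656 UMIs in the muscle donors and 14417 to 26464 at passage 0, so low genes were measured less precisely in muscle. The libraries shared 1 FAP barcode, which belongs to the same donor in both. The culture of donor 5 stood apart from the other cultures on many genes, and values without it are given with the donors below. Levels of single genes in FAPs and SCs are given below as CPM, UMI counts scaled to a common library total with TMM factors. Summed levels of marker lists, and all levels in the other cells, are CPM without TMM factors. Changes are given as log2 fold change (log2FC, passage 0 over muscle) ± standard error, and p-values as adjusted p of the edgeR quasi-likelihood test. Called genes have an adjusted p under 0.05 and a log2FC beyond 1 in either direction.

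The cell type names were assigned from the expression of these same cells, so the levels of FAP markers describe the label and do not test it. In muscle 15 of 15 FAP markers were higher in FAPs than in the other cells of the same donors, and their summed level was 45464 to 67671 CPM against 3489 CPM. At passage 0 the sum was 5396 to 9411 CPM against 2824 CPM, and 13 of 15 markers were higher in FAPs. The exceptions were the surface sialomucin CD34, at 2.09 against 22.9 CPM, and gelsolin (GSN), an actin-severing protein, at 129 against 481 CPM. Genes of other cell types were also detected. SC markers summed to 124 to 299 CPM in muscle FAPs (7 of 9 with a UMI, CALCR and CDH15 at 0) and to 21.8 to 33.7 CPM at passage 0 (9 of 9). Vascular markers summed to 21.2 to 141 and 32.0 to 59.4 CPM (9 of 9 in both), smooth muscle and mesenchymal markers to 21.1 to 69.8 and 37.5 to 76.0 CPM (7 of 7, then 6 of 7 with RGS5 at 0), and blood cell markers to 55.5 to 173 and 28.5 to 80.1 CPM (10 of 10 in both). Tenocyte markers summed to 213 to 852 CPM in muscle FAPs, on average 498 CPM against 215 CPM in the other muscle cells, mostly THBS4 and with SCX at 0, and to 4.60 to 18.5 CPM at passage 0. Glial markers summed to 2.83 to 14.8 CPM in muscle, with SOX10 at 0, and to 9.16 to 24.7 CPM at passage 0, with 1 marker at 0. Their part in the results below was not tested.

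Of 9208 genes with enough counts to test, 1928 (20.9%) were called higher and 2069 (22.5%) lower at passage 0, together 43.4%. The donor values of the groups did not overlap for 4047 genes (44.0%). The median log2FC over all genes was 0.03, and -0.08 when no TMM factors were used. It was 0.18 over the 17078 genes tested without a filter on low counts. In that fit the median of the FAP markers was -3.78, against -4.05 in the reported fit, so changes are relative to shifts of such sizes. Muscle fibre genes, of which 35 of the 40 tested were called lower with a median log2FC of -7.56, are set aside from here on. They are transcripts of the large fibres that the mononuclear fraction excludes, and 3 others of that list, TPM1, TPM2 and FABP3, were called higher. Of the 2069 lower genes, 1341 (64.8%) had a higher level in muscle FAPs than in the other muscle cells. Gene groups are described by the members that passed the filter on low counts, with the number listed. A member that passed through 1 group alone had to differ, so the counts describe the groups and are no support.

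**Figure D1:**
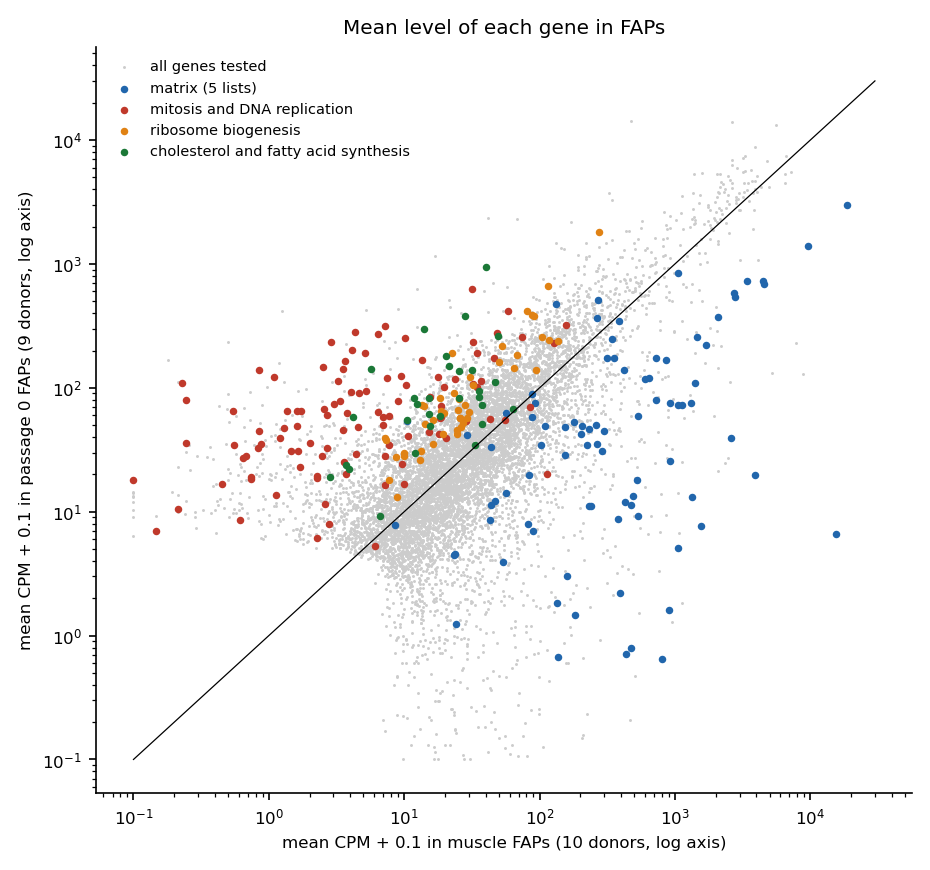
Mean CPM + 0.1 of every tested gene in muscle FAPs (horizontal, 10 donors) and passage 0 FAPs (vertical, 9 donors), both on log axes, with the line of equal level. Matrix genes (blue) lie mostly below the line, and mitosis, DNA replication, ribosome biogenesis and sterol genes mostly above it.

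**Figure D2:**
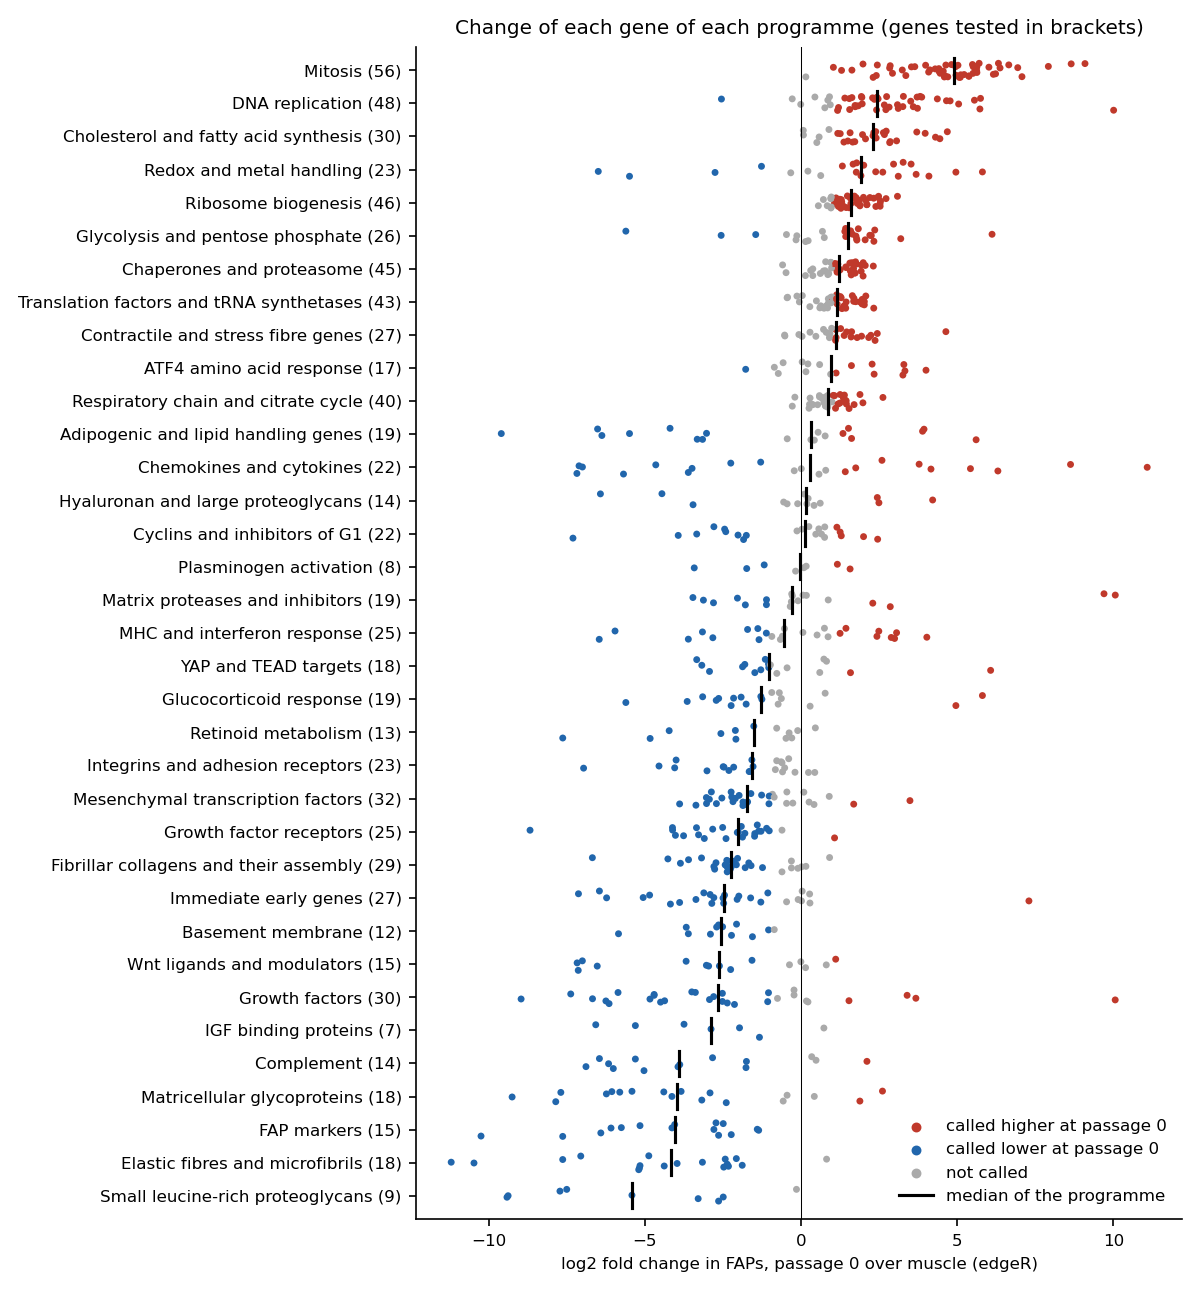
Change of each gene group in FAPs, passage 0 over muscle: points are the log2FC of the tested members, colored by call, and bars the group medians. The median is highest for mitosis (4.88) and lowest for small leucine-rich proteoglycans (-5.42).

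The FAP markers of resting muscle were lower at passage 0. All 15 FAP markers listed were tested and called lower (median log2FC -4.05). Donor values did not overlap for 15 of 15, against 44.0% of all genes tested. The median over the markers ranged from -4.63 to -3.16 among the 9 donors. The size of the fall differed widely between markers. PDGFRA, the receptor that defines the lineage, lay between 568 and 1247 CPM in muscle FAPs (median 777) and between 185 and 549 CPM at passage 0 (median 271), log2FC -1.40 ± 0.18, adjusted p = 2.5e-07. Its groups did not overlap, yet it was among the markers that fell least. Decorin (DCN), a proteoglycan that binds collagen fibrils, lay between 16982 and 20593 CPM in muscle FAPs (median 18847) and between 2430.3 and 3788 CPM at passage 0 (median 3045), log2FC -2.64 ± 0.076, adjusted p = 1.7e-19. Every passage 0 culture was below every muscle sample, though decorin remained far above its level in the other cultured cells (912 CPM).

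The largest falls among the markers were those of PI16, MFAP5, CD34, GSN and SCARA5. PI16, a peptidase inhibitor that marks adventitial fibroblast progenitors, lay between 242 and 846 CPM in muscle FAPs (median 526) and between 0 and 0.653 CPM at passage 0 (median 0.419), log2FC -10.25 ± 0.34, adjusted p = 3.7e-16. It was all but absent from the cultures, with 53 UMIs against 4442 in the much shallower muscle sums. MFAP5, a microfibril glycoprotein, lay between 2372 and 5558 CPM in muscle FAPs (median 3809) and between 9.05 and 56.2 CPM at passage 0 (median 15.7), log2FC -7.63 ± 0.35, adjusted p = 2.0e-13. The culture of donor 5 held the highest MFAP5 level at passage 0 and still stood well below all muscle samples. CD34 lay between 120.3 and 264 CPM in muscle FAPs (median 164) and between 1.61 and 2.82 CPM at passage 0 (median 1.93) and GSN between 7168 and 10750.4 CPM in muscle FAPs (median 8837) and between 80.2 and 253 CPM at passage 0 (median 117), with log2FC -6.41 ± 0.16 and -6.09 ± 0.20. Both groups were apart for both genes. The scavenger receptor SCARA5 lay between 303 and 656 CPM in muscle FAPs (median 532) and between 1.34 and 60.3 CPM at passage 0 (median 2.60), log2FC -5.76 ± 0.76, adjusted p = 1.4e-06, and the adhesion glycoprotein THY1 between 316 and 915 CPM in muscle FAPs (median 593) and between 21.8 and 102 CPM at passage 0 (median 27.7), log2FC -4.05 ± 0.31, adjusted p = 5.1e-10. In both, the highest culture was again that of donor 5. The remaining markers fell by log2FC between -5.16 (fibulin FBLN1) and -1.36 (PDGFRB, the other PDGF receptor).

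**Figure D3:**
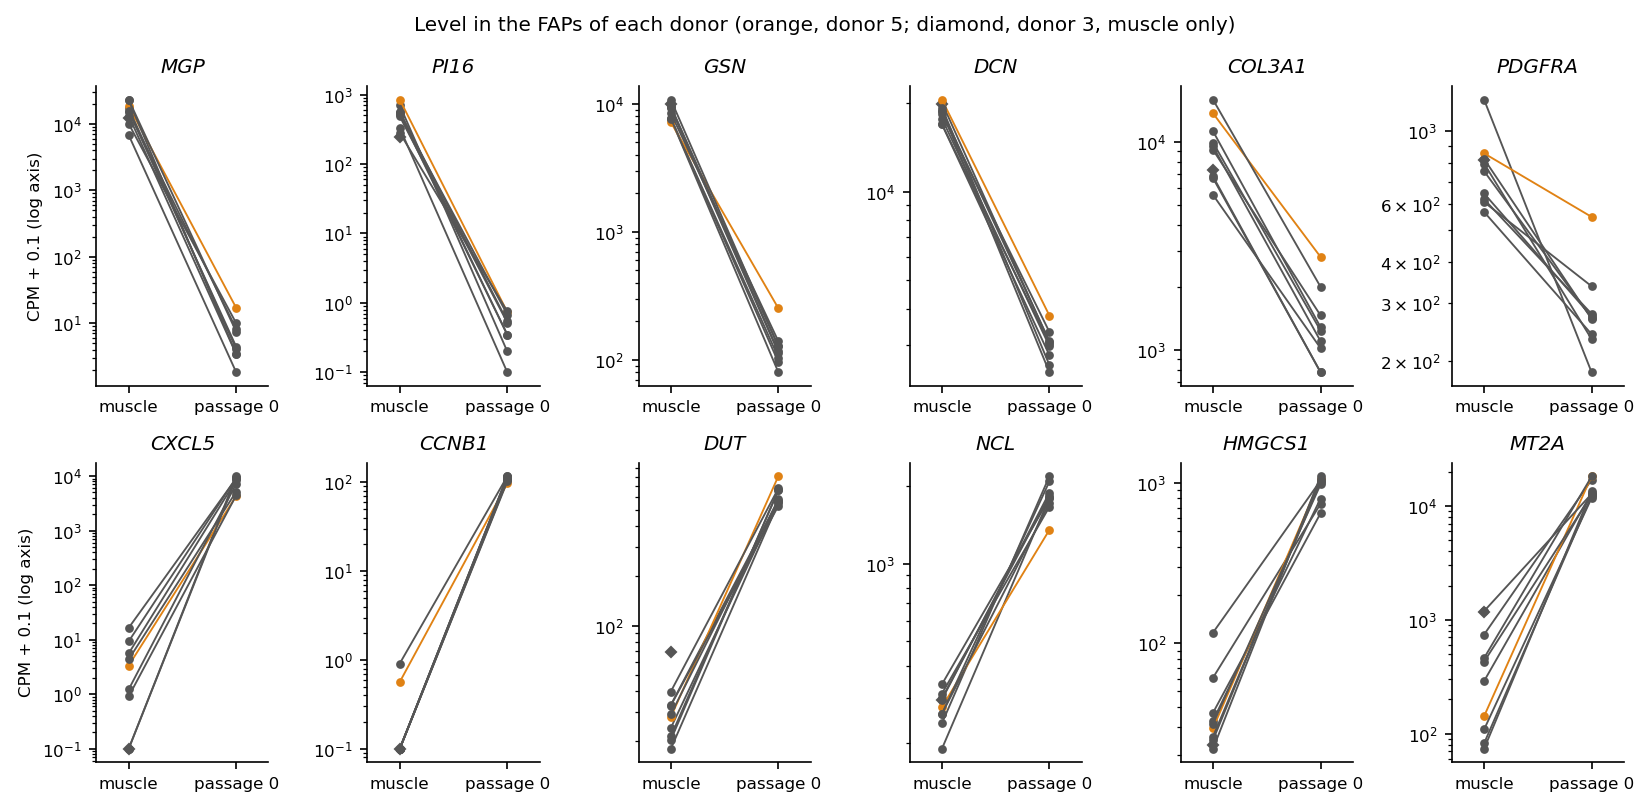
CPM + 0.1 on a log axis of 12 genes in the FAPs of each donor, with a line joining the muscle and passage 0 samples of 1 animal, donor 5 in orange and donor 3, which has muscle alone, as a diamond. In each of the 12 panels the passage 0 samples lie all on 1 side of the muscle samples, lower for MGP to PDGFRA and higher for CXCL5 to MT2A.

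Further transcripts that were high in muscle FAPs were nearly lost. Matrix Gla protein (MGP), which inhibits calcification, lay between 6805 and 23185 CPM in muscle FAPs (median 15508) and between 1.72 and 16.9 CPM at passage 0 (median 4.32), log2FC -11.20 ± 0.50, adjusted p = 2.0e-13. The muscle and passage 0 ranges were far apart. LTBP4, which tethers latent TGF-beta to elastic fibres, lay between 589 and 1021 CPM in muscle FAPs (median 767) and between 0 and 0.958 CPM at passage 0 (median 0.503), log2FC -10.47 ± 0.23, adjusted p = 8.9e-21, and tenascin-X (TNXB), a collagen spacer, between 605 and 1198 CPM in muscle FAPs (median 927) and between 0.606 and 2.77 CPM at passage 0 (median 1.45), log2FC -9.25 ± 0.27, adjusted p = 2.2e-17. Neither gene had a culture near the muscle range. The Notch-like inhibitor of adipogenesis DLK1 lay between 350.4 and 1732 CPM in muscle FAPs (median 762) and between 0.382 and 2.12 CPM at passage 0 (median 1.15) (log2FC -9.60 ± 0.44), the secreted glycoprotein myocilin (MYOC) between 453 and 616 CPM in muscle FAPs (median 567) and between 0.926 and 1.92 CPM at passage 0 (median 1.47) (log2FC -8.59 ± 0.12), and the GDNF receptor GFRA1 between 159 and 242 CPM in muscle FAPs (median 213) and between 0.251 and 0.83 CPM at passage 0 (median 0.578) (log2FC -8.47 ± 0.14). These were also apart in all donors. The secreted phosphoprotein SPP2 (log2FC -11.39 ± 0.29), the proteoglycans PODN (log2FC -9.42 ± 0.20) and ASPN (log2FC -9.38 ± 0.47), the protease inhibitor A2M (log2FC -9.38 ± 0.38) and the thyroxine carrier transthyretin (TTR, log2FC -10.49 ± 1.14) completed the 12 largest falls under the naming rule, with LTBP4, MGP, PI16, DLK1, TNXB, MYOC and GFRA1. TTR varied widely among muscle donors, from 4.34 to 858 CPM. DLK1, SPP2 and TTR are not among the falls called below as different from those in SCs.

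Genes of the structural matrix were lower in collagen, elastic fibre, basement membrane and proteoglycan groups alike. Of 31 listed fibrillar collagens and assembly factors, 29 were tested and 22 were called lower (median log2FC -2.24). All 22 were without overlap, as were 44.0% of all genes tested, and COL15A1 fell most (log2FC -6.68 ± 0.17). COL3A1 lay between 5565 and 15978 CPM in muscle FAPs (median 9340.3) and between 781 and 2801 CPM at passage 0 (median 1239), log2FC -2.79 ± 0.27, adjusted p = 1.2e-08, and COL1A2 between 2482 and 7449.5 CPM in muscle FAPs (median 4418) and between 454 and 892 CPM at passage 0 (median 708), log2FC -2.72 ± 0.22, adjusted p = 3.9e-10. Every culture lay below every muscle sample for both. All 18 elastic fibre and microfibril genes were tested, and 17 were called lower (median -4.18, and -4.98 over the 14 left after thinning all sums to 1 depth). For basement membrane, 12 of 15 were tested and 11 called lower (median -2.58), among them COL4A1 (log2FC -2.23 ± 0.098) and the laminin chain LAMA2, which fell most (log2FC -5.85 ± 0.25). The small leucine-rich proteoglycans had 8 of 9 tested (11 listed) called lower, with the lowest median of these groups (-5.42). Lumican (LUM), which also binds collagen fibrils, lay between 1049 and 4481 CPM in muscle FAPs (median 1889) and between 289.7 and 529 CPM at passage 0 (median 370.0), log2FC -2.49 ± 0.21, adjusted p = 1.0e-09. It fell less than most of its group.

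Matricellular glycoproteins had 13 of 18 tested genes (26 listed) called lower (median -3.99), among them SPARC (log2FC -2.64 ± 0.17) and CCN3 (log2FC -6.06 ± 0.27), and periostin (POSTN), a glycoprotein of remodeling tissue, with overlapping groups (log2FC -4.40 ± 0.57). Fibronectin (FN1), the main cell-binding glycoprotein, lay between 998 and 2392 CPM in muscle FAPs (median 1734) and between 129 and 295 CPM at passage 0 (median 236), log2FC -2.92 ± 0.18, adjusted p = 4.2e-12. The cultures grew on added fibronectin and held less of its message than any muscle sample. Tenascin-C (TNC), a matrix protein of injured tissue, lay between 0.930 and 35.8 CPM in muscle FAPs (median 4.18) and between 18.3 and 90.5 CPM at passage 0 (median 56.9), log2FC 2.61 ± 0.48, adjusted p = 6.7e-05, and THBS1, an activator of latent TGF-beta, between 29.3 and 393 CPM in muscle FAPs (median 98.7) and between 252 and 758 CPM at passage 0 (median 412), log2FC 1.88 ± 0.38, adjusted p = 1.8e-04. Both rose with overlapping donor values. In the hyaluronan and large proteoglycan group 3 of 14 tested genes (20 listed) rose and 3 fell (median 0.15), shares close to those of all genes in both directions. The syndecan SDC1 (log2FC 4.21 ± 0.37) rose most and the glypican GPC3 (log2FC -6.42 ± 0.38) fell most, and versican (VCAN) was not called (log2FC 0.42 ± 0.16).

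Of 19 tested matrix proteases and inhibitors (26 listed), 4 rose (21.1%, against 20.9% of all genes) and 7 fell (36.8%, against 22.5%), with a median of -0.30. After thinning 11 were tested and 6 called lower (median -1.59). Interstitial collagenase MMP1 had 0 UMIs in the muscle FAPs and 2299 at passage 0, at least 43.5-fold higher with 3 counts over the muscle group as the floor. MMP9, a gelatinase, had 0 and 1886 UMIs, at least 35.6-fold higher, and its level in the other cultured cells was 195 CPM against 14.4 CPM in FAPs. Such floors, and the intervals given for ratios, cover counting error only. Cathepsin L (CTSL, log2FC 2.86 ± 0.33) and the sheddase ADAM12 (log2FC 2.30 ± 0.31) rose as well. The gelatinase MMP2 was not called (log2FC 0.17 ± 0.089). The metalloprotease inhibitor TIMP2 fell (log2FC -1.78 ± 0.14), and RECK, a membrane-bound one, fell most (log2FC -3.46 ± 0.12). In plasminogen activation 2 of 8 tested genes (11 listed) rose (25%, against 20.9% of all genes) and 3 fell (37.5%, against 22.5%).

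Secreted signals of the tissue niche were mostly lower. Of 50 listed growth factors 30 were tested, 21 were called lower and 4 higher (median -2.66). IGF1, a growth factor for SCs and fibres, lay between 35.8 and 249 CPM in muscle FAPs (median 73.1) and between 0 and 0.765 CPM at passage 0 (median 0.0829), log2FC -8.96 ± 0.47, adjusted p = 8.2e-13, and its relative IGF2 between 384 and 1957 CPM in muscle FAPs (median 1113) and between 3.64 and 11.4 CPM at passage 0 (median 6.60), log2FC -7.38 ± 0.42, adjusted p = 5.6e-12. All cultures lay below all muscle samples for both. The insulin-like growth factor carriers fell too, with 6 of 7 tested (12 listed) called lower. IGFBP6 lay between 3234 and 7527 CPM in muscle FAPs (median 5039) and between 102 and 178 CPM at passage 0 (median 131), log2FC -5.31 ± 0.16, adjusted p = 1.2e-18, and IGFBP7 fell most (log2FC -6.57 ± 0.23). The morphogen BMP4 lay between 109 and 217 CPM in muscle FAPs (median 139) and between 9.56 and 22.6 CPM at passage 0 (median 13.5), log2FC -3.38 ± 0.18, adjusted p = 7.0e-14. Follistatin-like FSTL1, an extracellular BMP binder, fell less (log2FC -2.36 ± 0.12). Among the 4 that rose were the EGF receptor ligand epiregulin (EREG), with 0 UMIs in muscle and 2299 at passage 0 (at least 43.5-fold higher), the stress cytokine GDF15 (log2FC 3.40 ± 0.80) and FGF7, the keratinocyte growth factor (log2FC 1.53 ± 0.28). Donor values overlapped for GDF15 and FGF7, and not for EREG.

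Receptors were mostly lower. Of 25 tested growth factor receptors (38 listed) 23 were called lower and 1 higher (median -2.01). The leptin receptor LEPR fell most (log2FC -8.68 ± 0.44), and the type II TGF-beta receptor TGFBR2 lay between 281 and 669.5 CPM in muscle FAPs (median 456) and between 17.7 and 54.2 CPM at passage 0 (median 24.3), log2FC -4.11 ± 0.22, adjusted p = 5.5e-13. TGFBR3, its co-receptor, also fell (log2FC -3.10 ± 0.14). The rise was that of the oncostatin M receptor OSMR (log2FC 1.07 ± 0.24), with overlapping groups. It fell short of the call without TMM factors (0.97), in adults alone (0.94) and without donor 5 (0.81). Among 15 tested Wnt ligands and modulators (32 listed) 10 fell and 1 rose (median -2.61, and -0.66 over the 3 left after thinning). The antagonist SFRP2 fell most (log2FC -7.17 ± 0.42), and the ligand WNT2B lay between 35.5 and 108 CPM in muscle FAPs (median 63.4) and between 0.192 and 1.66 CPM at passage 0 (median 0.606), log2FC -6.53 ± 0.27, adjusted p = 6.0e-16. SFRP4, a related antagonist, rose, and lay between 249 and 1126 CPM in muscle FAPs (median 603) and between 630.5 and 2143 CPM at passage 0 (median 1271), log2FC 1.11 ± 0.28, adjusted p = 0.00121, with overlap between the groups. Its log2FC fell below the call without TMM factors (0.99), after thinning (0.85), among G1 cells (0.99) and in calves alone (0.83). In the integrin and adhesion receptor group 13 of 23 tested genes (35 listed) fell and the other 10 were not called. The leukocyte ligands VCAM1 (log2FC -4.00 ± 0.34) and ICAM1 (log2FC -4.55 ± 0.16) and the collagen receptor chain ITGA11 (log2FC -6.96 ± 0.39) fell, and the tetraspanin CD63 was not called (log2FC -0.61 ± 0.075).

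Mesenchymal transcription factors were mostly lower (median -1.74). Of 32 tested genes (38 listed) 21 were lower (65.6%, against 22.5% of all genes) and 2 higher (6.25%, against 20.9%). The early B cell factor EBF2, which acts in adipose progenitors, lay between 66.4 and 172 CPM in muscle FAPs (median 109) and between 10.0 and 22.9 CPM at passage 0 (median 14.4), log2FC -3.03 ± 0.17, adjusted p = 2.1e-13, and the homeobox factor MEOX2 fell with log2FC -2.54 ± 0.12. PRRX1, the homeobox factor of limb mesenchyme, lay between 60.1 and 127 CPM in muscle FAPs (median 85.5) and between 230.0 and 387 CPM at passage 0 (median 281), log2FC 1.69 ± 0.13, adjusted p = 1.8e-11. It was thus higher in every culture than in any muscle sample, opposite to the 15 FAP markers. RUNX1, a Runt family factor, rose as well (log2FC 3.49 ± 0.34).

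Complement genes were mostly lower. Of 14 tested complement genes (21 listed) 11 fell, 1 rose and 2 were not called (median -3.91). All 11 falls were without overlap, as were 44.0% of all genes tested. The C1 protease C1S lay between 461 and 2308 CPM in muscle FAPs (median 705) and between 12.2 and 88.1 CPM at passage 0 (median 18.9), log2FC -5.03 ± 0.46, adjusted p = 8.2e-09. The terminal component C7 (log2FC -6.89 ± 0.60), the C1 inhibitor SERPING1 (log2FC -3.88 ± 0.28) and clusterin (CLU, log2FC -2.83 ± 0.22) followed. The rise was the protease C2 (log2FC 2.11 ± 0.51), which was not called in calves alone (log2FC 2.03, adjusted p = 0.0584 in edgeR).

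Of 22 tested chemokines and cytokines (37 listed) 9 were higher and 9 lower (median 0.29). Each count was 40.9%, against 20.9% higher and 22.5% lower over all genes. The neutrophil attractant CXCL5 was among the 9 that rose, and lay between 0 and 16.4 CPM in muscle FAPs (median 2.19) and between 4314 and 9959 CPM at passage 0 (median 8405), log2FC 11.08 ± 0.37, adjusted p = 6.1e-16. The lowest culture lay far above the highest muscle sample, and the other cultured cells held 1404 CPM. CXCL2 lay between 0 and 3.67 CPM in muscle FAPs (median 0.465) and between 216 and 718 CPM at passage 0 (median 371), log2FC 8.63 ± 0.46, adjusted p = 9.7e-13, and the related attractants GRO1 and CXCL8 rose with log2FC 4.16 ± 0.31 and log2FC 6.30 ± 0.41. Interleukin 6 (IL6) lay between 0 and 38.6 CPM in muscle FAPs (median 0) and between 259.9 and 676 CPM at passage 0 (median 375), log2FC 5.42 ± 0.51, adjusted p = 1.2e-08. Its muscle levels were at 0 in most donors. The colony-stimulating factor CSF1, a survival factor for macrophages, lay between 96.1 and 154 CPM in muscle FAPs (median 134) and between 574 and 1063 CPM at passage 0 (median 721), log2FC 2.59 ± 0.11, adjusted p = 3.0e-16, and CSF3, which acts on neutrophils, rose with log2FC 3.78 ± 0.57. CCL2, which attracts monocytes, rose with overlapping groups (log2FC 1.42 ± 0.37), and was not called in calves alone (log2FC 1.07, adjusted p = 0.0857 in edgeR). The median and the split differed with the members that passed the filter. After thinning 8 of 13 were higher and 3 lower (median 1.56), among G1 cells 9 and 5 of 19 (1.52), and in adults alone 10 and 6 of 19 (1.40).

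Among the 9 that fell, CXCL12, which retains hematopoietic and lymphoid cells in tissues, lay between 636 and 1049 CPM in muscle FAPs (median 869) and between 17.6 and 93.3 CPM at passage 0 (median 30.9), log2FC -4.65 ± 0.30, adjusted p = 3.3e-11. Its scavenging receptor ACKR3 lay between 43.1 and 128 CPM in muscle FAPs (median 79.3) and between 0.189 and 0.933 CPM at passage 0 (median 0.578), log2FC -7.11 ± 0.21, adjusted p = 4.5e-19. CCL19, an attractant of lymphocytes and dendritic cells, fell with log2FC -7.18 ± 0.71. The decoy receptor IL1R2, which binds interleukin 1 without signaling, had 3 UMIs in muscle FAPs and 31170 at passage 0, a ratio of 589 (95% interval 202 to 2857). In the MHC and interferon group 8 of 25 tested genes (38 listed) rose (32%, against 20.9% of all genes). In it 9 fell (36%, against 22.5%), and the median was -0.53. The split and the sign of the median depended on the samples and depth, with 5 higher and 2 lower of 16 in adults alone (0.38), 5 and 4 of 20 among G1 cells (-0.058) and 2 and 1 of 8 after thinning (0.10). Every called member had a lower level in muscle FAPs than in the other muscle cells. The part of RNA from those cells was not tested. The antigen peptide transporter TAP1 (log2FC 3.06 ± 0.30) and the immunoproteasome subunit PSMB8 (log2FC 2.49 ± 0.20) rose, while the interferon-inducible IFI6 fell (log2FC -3.61 ± 0.35). The interferon-inducible ISG12(B) had 1 UMI in muscle FAPs and 23328 at passage 0, a ratio of 1323 (95% interval 237 to 52245).

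Cell division genes had the highest median of the groups. Of 57 listed mitosis genes 56 were tested and 55 were called higher (median 4.88), and the donor medians ranged from 3.70 to 6.25. CDC20, the activator of the anaphase-promoting complex, lay between 0 and 2.25 CPM in muscle FAPs (median 0) and between 129 and 154 CPM at passage 0 (median 139), log2FC 7.07 ± 0.21, adjusted p = 1.8e-19, and securin (PTTG1), which restrains separase until anaphase, between 0 and 9.00 CPM in muscle FAPs (median 2.76) and between 201 and 286 CPM at passage 0 (median 227), log2FC 6.23 ± 0.21, adjusted p = 4.3e-18. Most muscle donors had no CDC20 UMI, and the cultures differed little among themselves. The kinetochore subunit SPC24 rose by log2FC 6.65 ± 0.25, the spindle protein DLGAP5 by 6.59 ± 0.26, the cleavage furrow protein ANLN by 6.32 ± 0.22 and the transcription factor MYBL2 by 6.28 ± 0.24. The mitotic cyclins were near the floor in muscle. CCNB1 had 2 UMIs there and 14327 at passage 0 (ratio 406, 95% interval 112 to 3354), and CCNB2 1 and 10528 (ratio 597, interval 107 to 23579.5).

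Of 48 tested DNA replication genes (52 listed) 40 rose and 1 fell (median 2.42). The dUTPase DUT lay between 17.9 and 69.6 CPM in muscle FAPs (median 28.4) and between 532 and 805 CPM at passage 0 (median 584), log2FC 4.36 ± 0.15, adjusted p = 8.9e-18. The origin subunit ORC1 had 0 UMIs in muscle and 2289 at passage 0, at least 43.3-fold higher. The fall was the polymerase alpha subunit POLA2, which lay between 26.5 and 194 CPM in muscle FAPs (median 104) and between 17.5 and 22.2 CPM at passage 0 (median 19.9), log2FC -2.55 ± 0.21, adjusted p = 3.5e-10, against 5.64 CPM in the other muscle cells. The lowest muscle sample lay just above the highest culture, so the ranges did not overlap. The chromatin protein HMGB2 rose over all FAPs (log2FC 1.04 ± 0.099), and was lower among G1 cells (log2FC -0.61). It was not called without TMM factors (0.92), after thinning (0.79), in adults alone (0.74) or without donor 5 (0.97).

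Among G1 cyclins and inhibitors 5 of 22 tested genes (28 listed) rose (22.7%, close to the 20.9% of all genes) and 9 fell (40.9%, against 22.5%), with a median of 0.14. After thinning 1 of 15 rose and 6 fell (median -0.12). The G1 cyclin CCND1 lay between 2.98 and 40.0 CPM in muscle FAPs (median 16.8) and between 60.8 and 149 CPM at passage 0 (median 101.5), log2FC 2.45 ± 0.25, adjusted p = 1.3e-08, and its kinase CDK4 rose with log2FC 1.15 ± 0.063, short of the call after thinning (0.77) and among G1 cells (0.84). The inhibitor p57 (CDKN1C), a product of quiescent cells, lay between 153 and 900.1 CPM in muscle FAPs (median 519) and between 1.54 and 5.55 CPM at passage 0 (median 2.98), log2FC -7.30 ± 0.38, adjusted p = 1.0e-12. The inhibitor p27 (CDKN1B) lay between 53.7 and 124 CPM in muscle FAPs (median 91.2) and between 11.8 and 17.0 CPM at passage 0 (median 13.2), log2FC -2.79 ± 0.13, adjusted p = 6.6e-16. The cyclin and kinase were higher, and both inhibitors lower, in every culture than in any muscle sample.

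Cells that the deposited table places in G1 were compared alone (8042 genes tested, 17.6% called higher and 20.6% lower). Mitosis genes were higher for 31 of the 35 tested there (median 4.21), replication genes for 28 of 39 with 2 lower (median 1.56), and ribosome biogenesis for 31 of 46. All 15 FAP markers were called lower among G1 cells (median -3.81), as were 22 of 29 fibrillar collagens. The phases were called from the expression of these same cells, so the mitosis and replication counts among G1 cells describe them and are no test. The phase calls also rest on cells of unequal depth, and no share of cycling cells is read from them.

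Genes of protein synthesis and folding were mostly higher. In ribosome biogenesis 38 of 46 tested genes (47 listed) were higher and the other 8 were not called (median 1.59). Nucleolin (NCL), which acts in ribosomal RNA processing, lay between 189.7 and 338 CPM in muscle FAPs (median 285) and between 1354 and 2191 CPM at passage 0 (median 1805), log2FC 2.72 ± 0.098, adjusted p = 8.2e-18, and nucleophosmin (NPM1), a nucleolar chaperone, between 73.7 and 145 CPM in muscle FAPs (median 113) and between 477 and 813 CPM at passage 0 (median 679), log2FC 2.54 ± 0.11, adjusted p = 3.4e-16. Both ranges were narrow and apart. LYAR, a nucleolar protein, rose most among the named members (log2FC 3.09 ± 0.18). For translation factors and tRNA synthetases 24 of 43 tested (45 listed) rose and the other 19 were not called (median 1.14). EIF5A, which relieves stalled ribosomes, lay between 211 and 259 CPM in muscle FAPs (median 235) and between 1018 and 1262 CPM at passage 0 (median 1172), log2FC 2.33 ± 0.061, adjusted p = 2.3e-20, while the elongation factor EEF1A1 was not called (log2FC 0.040 ± 0.088). Of 45 chaperone and proteasome genes, all tested, 29 rose and the other 16 were not called (median 1.21). The mitochondrial chaperonin HSPD1 (log2FC 2.31 ± 0.12) and the cytosolic HSP90AB1 (log2FC 1.64 ± 0.087) were among them, and the small heat shock protein HSPB1 was not called (log2FC 0.28 ± 0.14).

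Sterol and fatty acid synthesis was the metabolic group with the highest median. Of 30 tested genes (32 listed) 25 rose and the other 5 were not called (median 2.32). HMGCS1, which makes the precursor of mevalonate, lay between 21.8 and 116 CPM in muscle FAPs (median 30.2) and between 646 and 1102 CPM at passage 0 (median 1019), log2FC 4.45 ± 0.27, adjusted p = 6.1e-12. Farnesyl diphosphate synthase (FDPS) lay between 14.9 and 47.9 CPM in muscle FAPs (median 24.9) and between 309 and 439.9 CPM at passage 0 (median 382), log2FC 3.71 ± 0.14, adjusted p = 1.4e-17, and the stearoyl-CoA desaturase SCD between 0 and 13.7 CPM in muscle FAPs (median 4.29) and between 100.1 and 181 CPM at passage 0 (median 132), log2FC 4.68 ± 0.26, adjusted p = 1.1e-13. All 3 were apart in every donor. Glycolysis and the pentose phosphate path had 16 of 26 tested genes (31 listed) higher and 3 lower (median 1.51). Pyruvate kinase PKM lay between 96.1 and 209 CPM in muscle FAPs (median 143) and between 1284 and 1428 CPM at passage 0 (median 1355), log2FC 3.19 ± 0.11, adjusted p = 2.0e-18, and GAPDH and enolase ENO1 rose with log2FC 1.64 ± 0.12 and log2FC 1.79 ± 0.095. Hexokinase HK2 had 1 UMI in muscle and 1285 at passage 0 (ratio 72.9, 95% interval 13.1 to 2879.9). PDK4, the kinase that keeps pyruvate out of the citrate cycle, fell (log2FC -5.61 ± 0.37). Of 40 tested respiratory chain and citrate cycle genes (43 listed) 18 were higher and 22 not called (median 0.86), with cytochrome c (CYCS, log2FC 2.62 ± 0.16) in the lead. That count was 15 without TMM factors (median 0.76) and 27 without the filter on low counts (1.14). After thinning the median was 0.68 over 39 genes.

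Lipid handling was mixed. In the adipogenic group 6 of 19 tested genes (33 listed) rose (31.6%, against 20.9% of all genes). In it 8 fell (42.1%, against 22.5%), and the median was 0.32. The largest of these falls (log2FC -9.60) was that of DLK1, an inhibitor of adipogenesis. The median turned to -0.76 without donor 5, to -0.57 in adults alone and to -3.32 over the 9 left after thinning. The fatty acid carriers FABP3, also a fibre gene, and FABP5 rose with log2FC 5.61 ± 0.20 and log2FC 3.89 ± 0.30. Perilipin 2 (PLIN2), the coat of lipid droplets, lay between 29.3 and 65.9 CPM in muscle FAPs (median 41.7) and between 517 and 896 CPM at passage 0 (median 701), log2FC 3.94 ± 0.13, adjusted p = 1.8e-18. Lipoprotein lipase (LPL), which releases fatty acids outside the cell, lay between 70.8 and 273 CPM in muscle FAPs (median 123) and between 0.671 and 2.26 CPM at passage 0 (median 1.19), log2FC -6.38 ± 0.26, adjusted p = 2.7e-15. PPARG, the master regulator of adipogenesis, was low in both groups (1.84 and 6.55 CPM on average) and higher at passage 0 with overlap (log2FC 1.52 ± 0.57). It was not called in calves alone (log2FC 0.84, adjusted p = 0.213 in edgeR). Retinoid genes had 7 of 13 tested (21 listed) lower and 6 not called (median -1.51). That median was -0.90 without donor 5, -0.82 in adults alone, -0.94 among G1 cells and -3.49 over the 4 left after thinning. The reductase DHRS3 fell most (log2FC -7.63 ± 0.32), and the carrier RBP4 was not called (log2FC 0.46 ± 0.14).

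Redox and metal handling genes rose for 16 of 23 tested (28 listed) and fell for 4 (median 1.92). The metallothionein MT2A, which binds zinc and copper, lay between 73.7 and 1192 CPM in muscle FAPs (median 359.6) and between 11745 and 18266 CPM at passage 0 (median 12988), log2FC 4.96 ± 0.54, adjusted p = 1.0e-07, and MT1A between 1.84 and 135 CPM in muscle FAPs (median 39.2) and between 1389.6 and 5946 CPM at passage 0 (median 1850.5), log2FC 5.81 ± 0.50, adjusted p = 4.2e-09. Even the lowest culture stood above the highest muscle sample for both. Superoxide dismutase SOD2 lay between 49.6 and 708 CPM in muscle FAPs (median 126) and between 1420.4 and 3135 CPM at passage 0 (median 2032), log2FC 3.69 ± 0.42, adjusted p = 2.2e-07. The ferritin heavy chain FTH1, thioredoxin TXN and the lipid peroxidase GPX4 rose with log2FC 2.39 ± 0.13, log2FC 3.52 ± 0.12 and log2FC 3.11 ± 0.10. The plasma selenoproteins fell instead, GPX3 with log2FC -5.49 ± 0.47 and SELENOP, a selenium carrier, with log2FC -6.49 ± 0.39. In the ATF4 amino acid group 8 of 17 tested genes (21 listed) rose and 1 fell (median 0.95, and -0.06 over the 10 left after thinning), while ATF4 itself was not called (log2FC 0.036 ± 0.088). The transporter SLC7A5 rose most (log2FC 4.00 ± 0.33), and the serine and glycine enzymes PHGDH and SHMT2 rose with log2FC 3.26 ± 0.19 and log2FC 3.33 ± 0.17.

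Cytoskeletal genes rose in part. Of 27 tested contractile and stress fibre genes (28 listed) 15 were higher and the other 12 were not called (median 1.12). Beta-actin (ACTB) lay between 726 and 2472 CPM in muscle FAPs (median 1526) and between 4852 and 5699 CPM at passage 0 (median 5465), log2FC 1.79 ± 0.14, adjusted p = 1.2e-10, and the calponin CNN2 rose most (log2FC 4.64 ± 0.38). Vimentin (VIM), the filament of mesenchymal cells, rose with log2FC 1.27 ± 0.098. Smooth muscle actin ACTA2, a myofibroblast marker, was low, at 12.9 and 41.2 CPM on average (log2FC 1.60 ± 0.26), with overlap and against 298 CPM in the other cultured cells. YAP and TEAD targets had 10 of 18 tested genes (22 listed) lower and 2 higher (median -1.04, and -1.83 over the 8 left after thinning). Connective tissue growth factor CCN2 fell (log2FC -3.18 ± 0.37) and its relative CCN1 was not called (log2FC -0.45 ± 0.23).

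Immediate early genes, which tissue dissociation can induce, were lower for 20 of 27 tested (32 listed) and higher for 1 (median -2.48). JUN lay between 1187 and 2579 CPM in muscle FAPs (median 1877) and between 149.6 and 280.3 CPM at passage 0 (median 222), log2FC -3.11 ± 0.15, adjusted p = 1.2e-14, and FOSB between 53.9 and 399 CPM in muscle FAPs (median 121) and between 0.414 and 3.64 CPM at passage 0 (median 0.818), log2FC -7.13 ± 0.47, adjusted p = 5.6e-11. In muscle, other cells held more of both, with 5023 and 693 CPM, and none of the 20 lower genes was above the other muscle cells in level. FOSL1, a FOS relative of growing cells, had 1 UMI in muscle FAPs and 2918 at passage 0 (ratio 165, 95% interval 29.7 to 6537). Glucocorticoid response genes fell for 11 of 19 tested (22 listed), and those that rose were the metallothioneins.

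The change in FAPs was set against that in SCs of the same libraries (647 SCs from muscle and 2282 from passage 0) by an interaction term in edgeR. Of 8751 genes tested, 665 (7.60%) changed more upward in FAPs than in SCs and 1089 (12.4%) more downward, together 20.0%. Mitosis differed for 52 of 53 tested genes, with a median change of 4.96 in FAPs against 1.37 in SCs. The difference for CDC20 was 4.84 ± 0.45 (adjusted p = 1.2e-11) and for PTTG1 4.70 ± 0.41 (adjusted p = 6.2e-12). FAP markers differed for 13 of 15, with medians of -4.03 in FAPs and 0.19 in SCs. The markers are genes high in muscle FAPs, and one low in muscle SCs had little room to fall there. The count thus describes the list and is no support. Among the 15 markers the exceptions were PDGFRB and SCARA5, and SCARA5 was called with donor as a replicate block (-4.48, adjusted p = 0.00757 in edgeR). DESeq2 called both (-3.41 for SCARA5 and -1.54 for PDGFRB). After thinning the calls of PI16, MFAP5 and CD34 were lost, with edgeR adjusted p-values of 0.9999, 0.448 and 0.229. Decorin averaged 151 CPM in muscle SCs and 1263 CPM in cultured SCs, PDGFRA 8.68 and 66.4 CPM. The difference was -5.55 ± 0.47 for DCN (adjusted p = 1.3e-11) and -4.10 ± 0.40 for PDGFRA (adjusted p = 1.7e-10). Whether these messages in cultured SCs are their own or free RNA was not tested.

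Matrix, complement and Wnt groups also changed more downward in FAPs. The difference was called in that direction for 15 of 18 elastic fibre genes (median change in SCs -1.07), 16 of 29 fibrillar collagen genes (0.21) and 8 of 9 small leucine-rich proteoglycans (-2.22). It was called for 11 of 14 complement genes (-0.42), 14 of 18 matricellular glycoproteins (-1.02) and 9 of 14 Wnt genes (0.89). Most members called lower in FAPs had started above the other muscle cells. They were 17 of 17 elastic fibre, 22 of 22 collagen, 8 of 8 proteoglycan, 12 of 13 matricellular, 9 of 10 Wnt and 8 of 11 complement genes. The share over all lower genes was 64.8%. A gene low in muscle SCs had less room to fall there, so the counts describe the groups and are no support. Among the named genes of these groups, thinning ended the calls of the proteoglycans PODN and ASPN, of the elastic fibre genes MGP, LTBP4 and MFAP5 and of the matricellular TNXB, with edgeR adjusted p-values from 0.0599 for LTBP4 to 0.921 for ASPN. Among the growth and metabolic groups, DNA replication changed more upward in FAPs for 17 of 46 genes and more downward for 1, with medians of 2.43 and 1.65 in FAPs and SCs. Glycolysis genes changed more upward for 2 of 25 and more downward for 6. Ribosome biogenesis was called more upward for 5 of 46 (median 1.59 in FAPs and 1.29 in SCs), chaperones and proteasome for 4 of 45 and translation for 1 of 43. Of 29 sterol and fatty acid genes 2 changed more upward and 3 more downward, and the medians were 2.34 in FAPs and 2.42 in SCs. Over all genes, 7.60% changed more upward and 12.4% more downward. The upward counts of the glycolysis, ribosome, chaperone, translation and sterol groups lie near that share or below it. Immediate early genes changed more upward in FAPs for 10 of 28 and more downward for 2. SFRP4 averaged 14.6 CPM in muscle SCs and 714 CPM in cultured SCs.

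**Figure D4:**
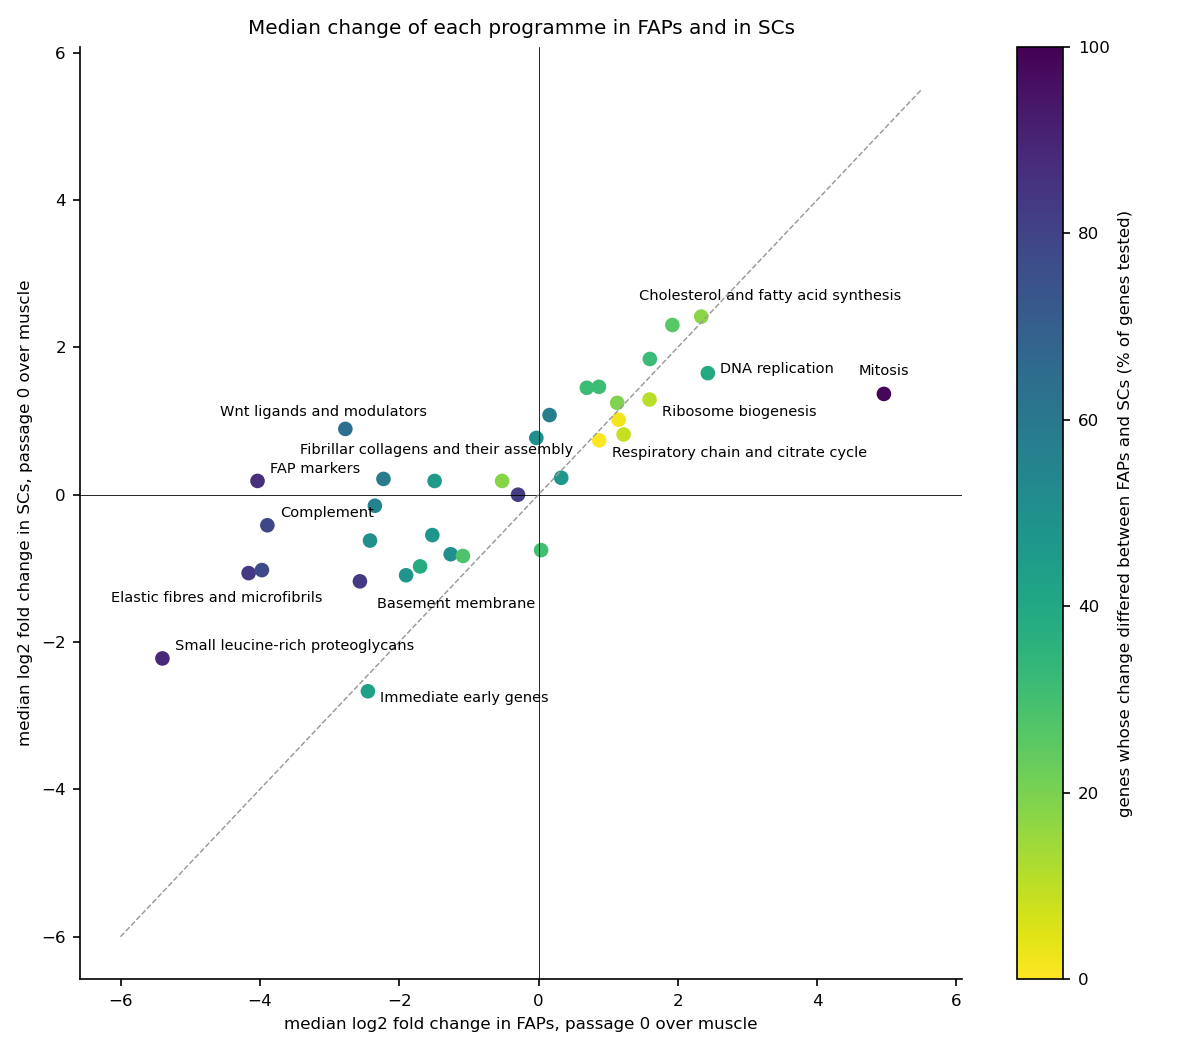
Median log2FC of each gene group, passage 0 over muscle, in FAPs (horizontal) and in SCs (vertical), with the dashed line of equal change and color for the percent of tested genes whose change differed. Mitosis lies at 4.96 in FAPs and 1.37 in SCs, and FAP markers at -4.03 and 0.19, both far from the line. The FAP markers are genes high in muscle FAPs, and those low in muscle SCs had little room to fall there.

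Among the cultures, FAPs of donor 5, a calf, stood apart. FAPs were 46.4% of its annotated cells in muscle and 78.1% at passage 0. For 656 of 9208 genes (7.12%) its culture was set apart from the other 8 by Dixon's gap criterion, against 0.174 to 0.815% of genes for the other passage 0 donors and 0.163 to 3.19% for the muscle donors. The muscle donors most often apart as the lowest were 3, 1 and 9 (271, 231 and 172 genes). Their sums were the smallest (270458, 314002 and 330403 UMIs), and the part of depth was not tested. Donor 5 held the highest passage 0 level in 11 of 15 FAP markers (73.3%), 11 of 14 complement genes (78.6%), 13 of 19 glucocorticoid genes and 16 of 29 fibrillar collagen genes, where it was highest for 24.7% of all genes. It held the lowest level in 44 of 46 ribosome biogenesis genes (95.7%), 29 of 43 translation genes and 25 of 48 replication genes, against 26.5% of all genes. In muscle it was the highest donor for 4 of 15 FAP markers and the lowest for 3, against 517 and 336 of all 9208 genes. C1S shows the pattern, with 88.1 CPM in donor 5 and a passage 0 median of 18.9 CPM. Without donor 5 in both groups the FAP markers had a median log2FC of -4.31 and ribosome biogenesis 1.58, with 38 genes higher.

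**Figure D5:**
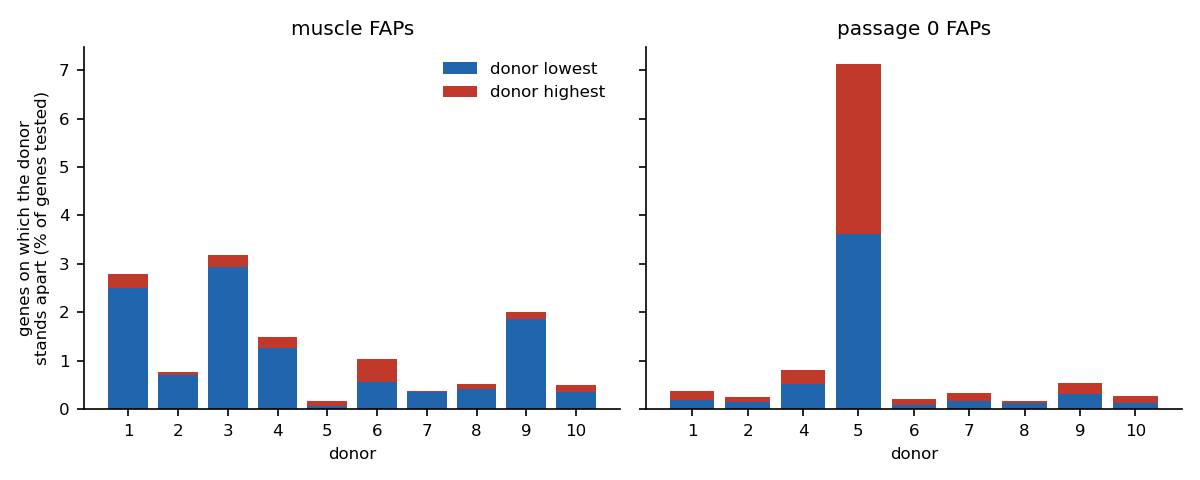
Percent of the tested genes on which each donor is set apart from the rest of its group by the gap criterion, as the lowest (blue) or highest (red) sample, for muscle and passage 0. The culture of donor 5 reaches 7.12%, and no other bar exceeds 3.19%.

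The direction of the main groups was shared by the donors. The median log2 change of the FAP markers ranged from -4.63 in donor 1 to -3.16 in donor 5, and that of the mitosis genes from 3.70 in donor 8 to 6.25 in donor 1. Replication genes ranged from 2.16 in donor 5 to 2.62 in donor 6, sterol and fatty acid genes from 1.61 to 2.56, ribosome biogenesis from 1.28 to 2.20 and complement from -4.97 to -2.73. Donor medians lay on both sides of 0 for chemokines and cytokines, from -0.48 in donor 10 to 1.61 in donor 9, and for the ATF4 group, from -0.26 in donor 6 to 2.54 in donor 4. They also did so for the adipogenic, MHC and interferon, G1 cyclin, matrix protease, plasminogen activation and hyaluronan groups, all within -0.95 and 0.64.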

How the data were processed

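Single cells were measured by droplet RNA sequencing in 10 muscle samples and 9 passage 0 cultures of Belgian Blue cattle, pooled into 1 library per group. The authors aligned the reads and counted UMIs with Cell Ranger 6.0.1 on ARS-UCD1.2 and used demuxlet genotypes to give each barcode a donor. Their deposited matrices are UMI counts, not normalized, for 21880 genes. The deposited cell table gave donor, cell type, cell cycle phase and the percent of mitochondrial UMIs as computed by the authors, and 10 of its columns were not used. That table holds barcodes classed as singlets by genotype alone, and no doublet caller was run. The labels list 2 runs of the passage 0 library. The matrix used is linked to the first, and whether it also holds reads of the second is not given in the sources used here.

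Counts of FAPs were summed per donor (at least 10 cells) and compared with edgeR 4.0.16 in R 4.3.3 (quasi-likelihood F test, robust, 2-sided, TMM factors, filterByExpr, Benjamini-Hochberg adjustment over all genes tested). Calls needed an adjusted p under 0.05 and a log2FC beyond 1 in size, and standard errors were derived from the log2FC and its F statistic. The difference between FAPs and SCs was an interaction term in the same kind of fit. There the FAP and SC sums of an animal entered as separate samples, though they are not independent. Against a group with 0 counts a lower bound was computed by setting that group to 3 counts, and with 1 to 3 counts the ratio of the pooled counts with its exact 95% interval. The fits were also run on simulated counts with independent samples, a fixed dispersion and few changed genes. That setting is simpler than these data, so it does not cover shifts as broad as those reported.

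Alternatives were DESeq2 1.42.0, no TMM factors, no filter on low counts, donor as a replicate block, thinning to the smallest sum, at least 50 cells, G1 cells only, calves only and adults only. Leaving the fibre genes out of the fit and leaving donor 5 out were added after the results were seen. Muscle and passage 0 samples with 1 donor number come from the same animal, and the reported fit did not pair them. Their deviations from the group means correlated between -0.023 (donor 4) and 0.163 (donor 10). The highest correlation with another donor was 0.088 for donor 4 and 0.023 for donor 10. In every donor except donor 4 the correlation within the animal was the higher.

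The FAPs as a subject and the 42 gene lists were chosen with earlier results of these data known. Named genes are the 12 largest rises and 12 largest falls among called genes that moved alike in 9 of 9 donors, reached 100 CPM in the higher group, carry a symbol and are no fibre genes. Falls also had to lie at or above the other muscle cells in muscle FAPs. From each list the 2 members with the highest level, the largest rise and the largest fall were added, and every FAP marker. A further 38 genes were named after their values were seen: PRRX1, THBS1, MMP9, ADAM12, CTSL, IL6, CXCL8, GRO1, CSF3, CSF1, CCL2, CXCL12, ACKR3, C1S, PLIN2, FABP5, PPARG, LPL, PKM, TXN, GPX4, SOD2, PHGDH, SHMT2, CDKN1B, CDK4, WNT2B, BMP4, ICAM1, VCAM1, FGF7, GDF15, TGFBR2, EBF2, PSMB8, TAP1, IFI6 and POSTN. No genome of the build of the files was used, so no coordinates or sequences are given, and 68 symbols that stand for several genes are not named. Some genes that these rules name are not reported here.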

Additional observations from a re-analysis of the deposited data

Results flagged for a closer look

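Donor values were searched for single samples far from the rest of their group, with Dixon's criterion at the 95% level, for the 191 named genes in both groups. Of the 382 sets of donor values 38 held such a sample, or 9.95%, against 11.5% of the 18416 sets over all genes tested. The level of 1 in 20 holds for normally distributed values and not for sparse counts, where 1 UMI can set a sample apart. Of the 38, 21 concern the passage 0 culture of donor 5. Its level was the highest, far from the other 8 cultures, for MT1A (5946 CPM), CLU (664 CPM), TEK (3.25 CPM), SERPINF1 (251 CPM), IFI6 (42.4 CPM), THY1 (102 CPM), TGFBR2 (54.2 CPM), DPT (130.2 CPM), CXCL12 (93.3 CPM), C1S (88.1 CPM), SCARA5 (60.3 CPM), LAMA2 (19.4 CPM), GSN (253 CPM), CCL19 (3.12 CPM), MFAP5 (56.2 CPM) and IGF1 (0.765 CPM). It was the lowest for LYAR (118 CPM), CYCS (388 CPM), HSPD1 (815 CPM), ACTB (4852 CPM) and HSP90AA1 (2495 CPM). FAP markers and complement genes are among the former, and the nucleolar LYAR and chaperones among the latter. Other cultures stood apart as the highest for FOSB (donor 10, 3.64 CPM) and as the lowest for SFRP1 (donor 1, 25.9 CPM), CD63 (donor 7, 842 CPM), NCAM1 (donor 2, 5.72 CPM) and LTBP4 (donor 4, 0 CPM). Among muscle samples the highest stood apart for ISG12(B) (donor 10, 0.813 CPM), CCNB2 (donor 8, 1.45 CPM), FOSL1 (donor 6, 1.13 CPM), HK2 (donor 1, 2.98 CPM), TEAD4 (donor 6, 1.13 CPM), SOD2 (donor 4, 708 CPM), EIF1 (donor 6, 2205 CPM), CCN1 (donor 1, 811 CPM), PDGFRA (donor 4, 1247 CPM), FSTL1 (donor 5, 2040.3 CPM) and IFI6 (donor 10, 484 CPM), and the lowest for COL15A1 (donor 4, 798 CPM). ISG12(B), CCNB2, FOSL1, HK2 and TEAD4 have a UMI in that 1 muscle sample alone.

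Of the 12 largest rises and 12 largest falls, 23 could be tested for a difference between FAPs and SCs, and 16 were called in the edgeR interaction fit. The change in FAPs minus that in SCs, on the log2 scale, was positive for CCNB1 5.96, CDC20 4.84, SPC24 4.11, DLGAP5 4.57, ANLN 3.31, MYBL2 2.61, PTTG1 4.70. It was negative for MGP -3.63, LTBP4 -4.84, PI16 -6.11, PODN -2.93, ASPN -4.88, A2M -5.08, TNXB -5.11, MYOC -5.33, GFRA1 -2.64. These 9 negative differences were not called after thinning all sums to 1 depth, where they ranged from -7.37 for PI16 to -1.89 for GFRA1. CXCL5, CXCL2, IL1R2 and UCHL1 averaged from 0 to 0.272 CPM in muscle SCs, and their differences, with standard errors between 2.34 and 6.81, are not read.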

How the results depend on the processing

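The number of called genes depended on which genes could be tested. Of 17078 genes tested without a filter on low counts, 6925 were called (3226 higher and 3699 lower), and of 3878 tested after thinning all sums to the smallest, 1614 (693 higher and 921 lower), against 3997 of 9208 (1928 and 2069). DESeq2 called 4023, the fit without TMM factors 3976 (1723 higher and 2253 lower), calves alone 4892, adults alone 3221, G1 cells alone 3068, and the fit without fibre genes 3955; at least 50 cells left the result as it was. With donor as a replicate block, which the shared animals pair, 4622 of 10533 were called. In each alternative the called genes shared with the reported fit had the same sign. Not all of the 3997 calls could be tested in each fit. Of those that could, 1487 of 1721 recurred after thinning, 2871 of 3376 among G1 cells and 2964 of 3292 in adults. Without donor 5 (3465 calls) 3354 of 3477 recurred, and without fibre genes 3948 of 3959. With DESeq2 3907 of 3997 recurred, and without the filter 3562 of 3997. For the difference between FAPs and SCs, thinning left 412 calls (118 higher and 294 lower), while DESeq2 gave 1873, no TMM factors 1757, no filter 2175 and the replicate block 1949. Calls of a difference lost on thinning were those of MGP (-3.46, adjusted p = 0.221), LTBP4 (-4.81), PI16 (-7.37), PODN (-2.97), ASPN (-3.71), A2M (-6.96), TNXB (-5.45), MYOC (-3.66), GFRA1 (-1.89), MFAP5 (-3.38) and CD34 (-3.83), all still negative.

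Of the values of named genes over all alternatives, 1982 kept direction and call, 18 lost a call, 6 gained one and 17 turned in sign. Lost calls include those of SFRP4, OSMR, HMGB2, CDK4, C2, PPARG and CCL2, given with their results, and of NUPR1 among G1 cells (-0.88). Those that turned were uncalled genes near 0, except HMGB2. NOTCH3 was 0.034 with DESeq2, 0.19 without the filter and 0.14 with the block. Without TMM factors ANXA2 was -0.028, EEF1A1 -0.074 and ATF4 -0.080. S100A10 was 0.098 without the filter. After thinning MMP2 was -0.077, ANXA2 -0.12, EEF1A1 -0.20 and ATF4 -0.14. In G1 cells HMGB2 was -0.61 and ATF4 -0.039. EGFL7 was -0.087 and EEF1A1 -0.029 in calves, ATF4 -0.043 in adults, and EEF1A1 -0.0032 without donor 5. The cause was not tested. Muscle sums hold 270458 to 2268755 UMIs, so genes below a few CPM there have no precise fold.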
